A study of Mus musculus with 8 samples.

Results

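Fibroblast growth factor (FGF) signalling genes were examined in mouse embryonic stem cells differentiated towards precardiac mesoderm, with and without Tbx1. The group holds 35 listed genes of the 55487 identifiers in the count table: 10 secreted ligands, 3 intracellular FGF homologues, 5 receptor genes, 3 genes that act on ligand availability, 2 adaptors, 9 feedback inhibitors and 3 ETS factors. The members were taken from a list of symbols chosen with earlier results of these data known. All 35 were found in the table by their Ensembl identifier.

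FGFs are secreted proteins that bind receptor tyrosine kinases together with heparan sulphate, and the docking protein FRS2 links the activated receptor to the RAS and ERK kinases. ERK activity induces the ETS factors of the Etv group and a set of inhibitors, the Sprouty and Spred proteins, dual-specificity phosphatases and Il17rd, which damp the pathway in return. In the mouse embryo Fgf8 and Fgf10 are expressed in the second heart field, the progenitor pool that builds the outflow tract, and Tbx1 is known to act upstream of them there.

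The parental group was E14-Tg2a, an embryonic stem cell line with the genotype WT, and the mutant group was line 4D derived from it, with the genotype Tbx1-/-. Each group had 4 libraries, described by the submitters as biological replicates, and all cells were harvested on day 6 of serum-free differentiation without any other treatment. Since every mutant library came from line 4D, loss of Tbx1 cannot be told apart from whatever else sets this line off. RNA was read by QuantSeq, a 3′ end method with about 1 read per transcript. Levels are therefore given as counts per library of 1000000 (CPM, on the TMM scale) and can be set side by side between genes without correction for length.

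Total counts were between 3803561 and 6293907 per library, the lowest in mutant library 4. That library also had the fewest genes with a count, 14850, against 18213 to 19134 in the other 7. Tbx1, the targeted gene, had 39, 65, 38 and 22 counts in parental libraries 1 to 4 and 3, 0, 1 and 0 in mutant libraries 1 to 4, so the labels and the counts of this gene go together (edgeR adjusted p = 0.00432). The labelled state was checked with marker genes from lists that were also chosen with earlier results of these data known. Hand2 is a transcription factor of heart progenitors and was the highest gene of its list. It lay between 328 and 369 CPM in the parental and between 426 and 509 CPM in the mutant libraries. Its log2 fold change of 0.40 was not called (edgeR adjusted p = 0.0513), and 11 of the 13 tested genes of its list were below 0. Ttn, which encodes the sarcomere protein titin, lay between 246 and 1170 CPM in the parental and between 22.7 and 289 CPM in the mutant libraries.

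Of the 35 FGF members, 27 passed the low-count filter and were tested, and 1 of them, the ligand Fgf10, had an adjusted p under 0.05 in edgeR's quasi-likelihood test, as a fall in the mutant line. Over all 13280 genes tested, 1.42% passed in either direction and 0.67% passed as lower, and 1 called member of 27 is too few to be read against these shares. At an unadjusted p under 0.05, 11 of the 27 were lower (Fgf3, Fgf8, Fgf10, Fgf13, Fgfr1, Sulf1, Spry2, Spred3, Dusp4, Il17rd and Etv4) and 1, Fgfr2, was higher, where 5.92% of all genes were lower and 6.01% higher. Of the 27, 6 had all 4 mutant libraries below all 4 parental ones (Fgf10, Fgfr1, Spry2, Spred3, Dusp4 and Il17rd) and 0 had them all above. Over all genes these shares were 4.04% and 3.49%. The median log2 fold change was -0.52 over the 27 members and 0.00 over all genes, and 21 of the 27 were below 0. Members with low counts could pass the filter through the parental libraries alone, and the list was chosen with earlier results of these data known. These counts and the median therefore describe the 27 and are not a test of the group.

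**Figure D1:**
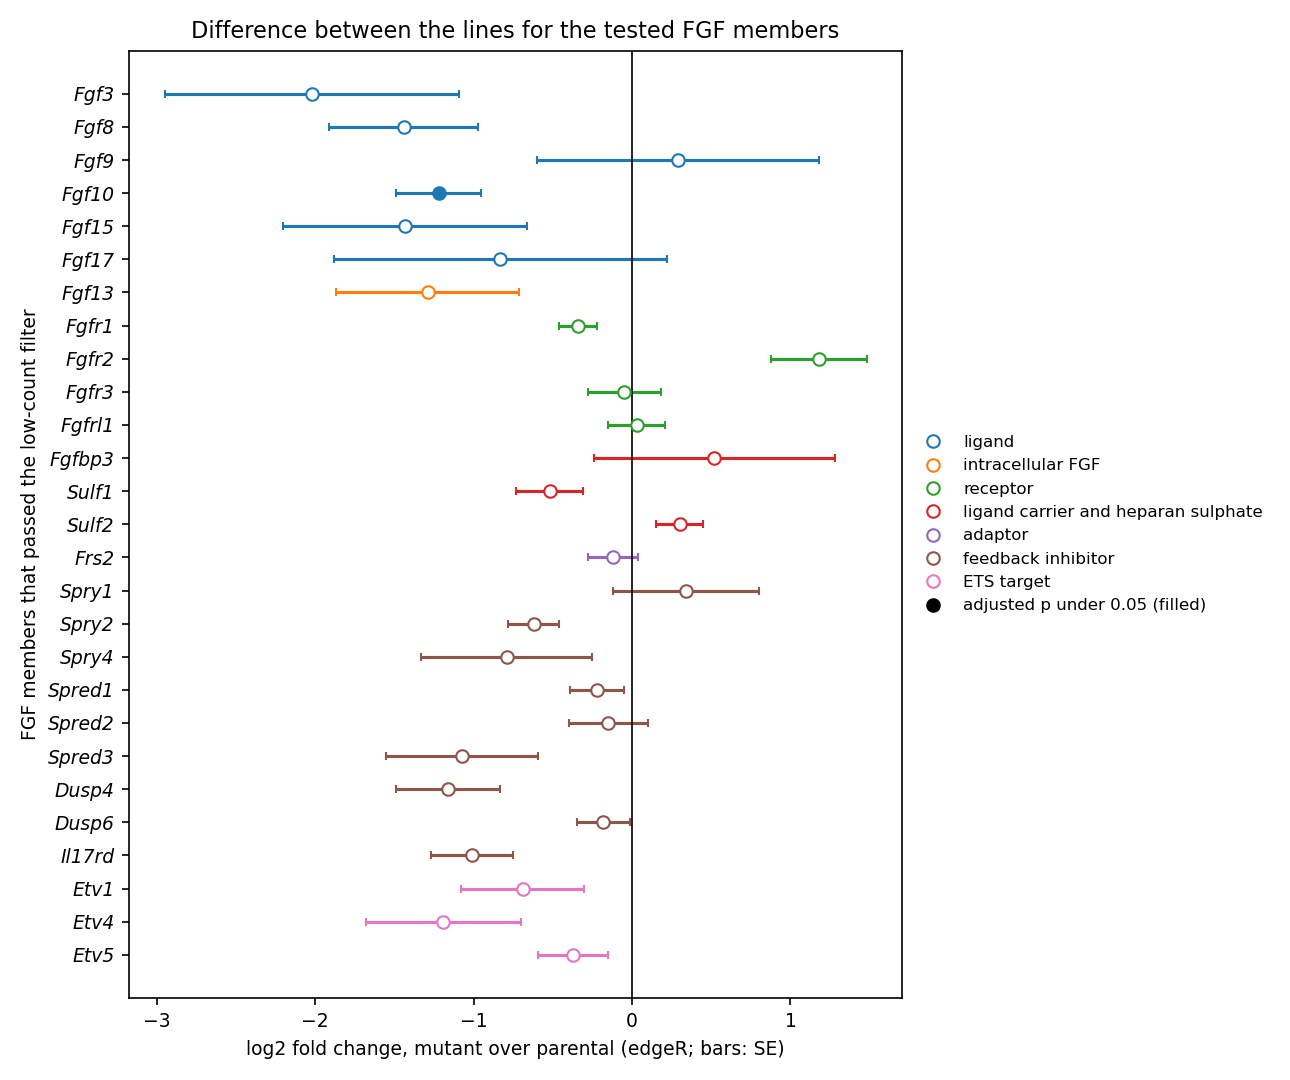
Log2 fold change of the mutant over the parental line for the 27 tested FGF members, with the SE as bars and colours by role. Fgf10 carries the filled point of an adjusted p under 0.05, 21 points lie left of 0, and Fgfr2 lies farthest to the right at 1.18.

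The number of called members depended on the test. DESeq2 called 5 members, Fgf10, Spry2, Dusp4 and Il17rd as lower and Fgfr2 as higher, with 3.05% of all genes called. With limma-voom 3 were called, Fgf10 and Il17rd as lower and Fgfr2 as higher, with 1.9% of all genes called. The direction of these 5 genes was the same in all 16 alternative settings that were run. In each setting their log2 fold changes differed from the main fit by less than 1.5 times. Between settings that of Fgfr2 ranged from 0.91 to 1.52.

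Among the secreted ligands, Fgf10 was the most abundant and the called one. Fgf10, a ligand for the IIIb form of Fgfr2 that is known for its part in branching epithelia and marks the second heart field, had 25.0, 20.7, 34.3 and 22.8 CPM in parental libraries 1 to 4. It had 11.4, 10.6, 8.13 and 14.2 CPM in mutant libraries 1 to 4. Every mutant library was below every parental one, and the means of 25.7 ± 5.98 and 11.1 ± 2.51 CPM (SD, n = 4) differed 2.32-fold, a log2 fold change of -1.22 ± 0.27 (SE, edgeR adjusted p = 0.0262). The call ended when parental library 1 or 3, or mutant library 1, 2 or 3 was left out, with edgeR adjusted p-values of 0.0615, 0.146, 0.0625, 0.0507 and 0.0831 in that order, while the log2 fold change stayed between -1.36 and -1.06 over all libraries left out in turn.

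Fgf10 (ENSMUSG00000021732.14) codes for protein and lies at 118669791 to 118792115 of chromosome 13 (GRCm38, plus strand). The 250 bases before its RefSeq start site (GRCm38.p6, chr13:118714449-118714698, plus strand) are shown because it is the called member. They were searched on both strands for a T-box half-site (GGTGTGA), an ETS site (CCGGAAG), an AP-1 site (TGACTCA) and the 4 spellings of the octamer bound by Capicua (TGAATGAA, TGAATGGA, TCAATGAA and TCAATGGA). Capicua is a repressor that ERK activity removes from its targets. None of these runs of letters is in this window, which lies in an intron of the longer M21 model, so it is printed in lower case throughout.
Fgf10: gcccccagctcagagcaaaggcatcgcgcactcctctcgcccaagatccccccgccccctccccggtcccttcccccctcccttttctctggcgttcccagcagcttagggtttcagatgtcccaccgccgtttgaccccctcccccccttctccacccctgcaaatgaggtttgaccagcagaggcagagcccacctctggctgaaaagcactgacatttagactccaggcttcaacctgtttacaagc

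Fgf8, a ligand needed for outflow tract and pharyngeal arch development, had the second highest level of the ligands. Its parental values were 11.8, 16.2, 17.3 and 5.03 CPM, and its mutant values were 4.34, 5.85, 1.81 and 6.84 CPM. Parental library 4 lay inside the mutant range, and the other 3 parental libraries lay above it. The log2 fold change of Fgf8 was -1.44 ± 0.47 with an edgeR adjusted p of 0.175, which did not pass, although its 2.67-fold difference between the means was larger than that of Fgf10.

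Fgf3, Fgf4 and Fgf15 are neighbours within 62871 bases of chromosome 7 (144838083 to 144900953, GRCm38), all on the plus strand. Fgf3, a ligand of the pharyngeal and otic region, had 2.17, 2.32, 7.14 and 5.03 CPM in the parental libraries. In the mutant libraries it had 0.167, 0.867, 2.89 and 0 CPM, and mutant library 3 overlapped the parental range. Its log2 fold change was -2.02 ± 0.93 (edgeR adjusted p = 0.406), and -3.49 without mutant library 3. Fgf15, the mouse counterpart of human FGF19, had 11.2, 3.93, 5.56 and 1.68 CPM in the parental and 1.17, 5.42, 0.903 and 0.820 CPM in the mutant libraries (log2 fold change -1.43 ± 0.77, edgeR adjusted p = 0.498). Mutant library 2 was the one mutant library inside the parental range of Fgf15, and the log2 fold change was -2.5 without it and -0.85 without parental library 1. Fgf4, a ligand of the early embryo that sits between them, had at most 17 counts in any library and was not tested.

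Fgf17, a close relative of Fgf8, had log2 fold change -0.83 ± 1.05 (SE, edgeR adjusted p = 0.822), with 0 counts in mutant libraries 3 and 4 and 4.77 CPM in mutant library 2. It was -2.15 without mutant library 2 and between -0.40 and -0.45 without parental library 3 or mutant library 3 or 4. Fgf9, a ligand made by epicardium and mesothelium, had 2.89, 2.32, 6.51 and 1.26 CPM in the parental and 3.01, 11.3, 1.63 and 0 CPM in the mutant libraries. Its estimate of 0.29 ± 0.89 (edgeR adjusted p = 0.944) changed sign when mutant library 2 was left out, to -1.03. Fgf1, Fgf5 and Fgf18 had at most 23, 9 and 15 counts in any library and were not tested. Fgf5, a ligand of the primed epiblast, had 2, 0, 8 and 9 counts in the parental libraries and 0 in all 4 mutant ones. In the fit without the filter it did not pass (edgeR adjusted p = 0.422).

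Summed over the 10 secreted ligands, levels were 57.7, 52.1, 79.4 and 39.8 CPM in parental libraries 1 to 4 and 27.4, 42.5, 21 and 22.1 CPM in mutant libraries 1 to 4. Mutant library 2 overlapped parental library 4. Fgf10 made up 45.9 ± 7.85% of ligand counts in the parental and 42.4 ± 16.2% in the mutant libraries (SD, n = 4). Its share therefore overlapped between the lines while its level did not.

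The intracellular FGF homologues bind sodium channels and do not activate the receptors. Of the 3, Fgf13 passed the filter, with 3.07, 5.89, 9.36 and 8.59 CPM in the parental and 1.34, 3.47, 3.43 and 2.73 CPM in the mutant libraries. Parental library 1 lay among the mutant values, and the log2 fold change was -1.29 ± 0.58 (edgeR adjusted p = 0.381). Fgf11 and Fgf12 had at most 23 and 13 counts in any library.

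**Figure D2:**
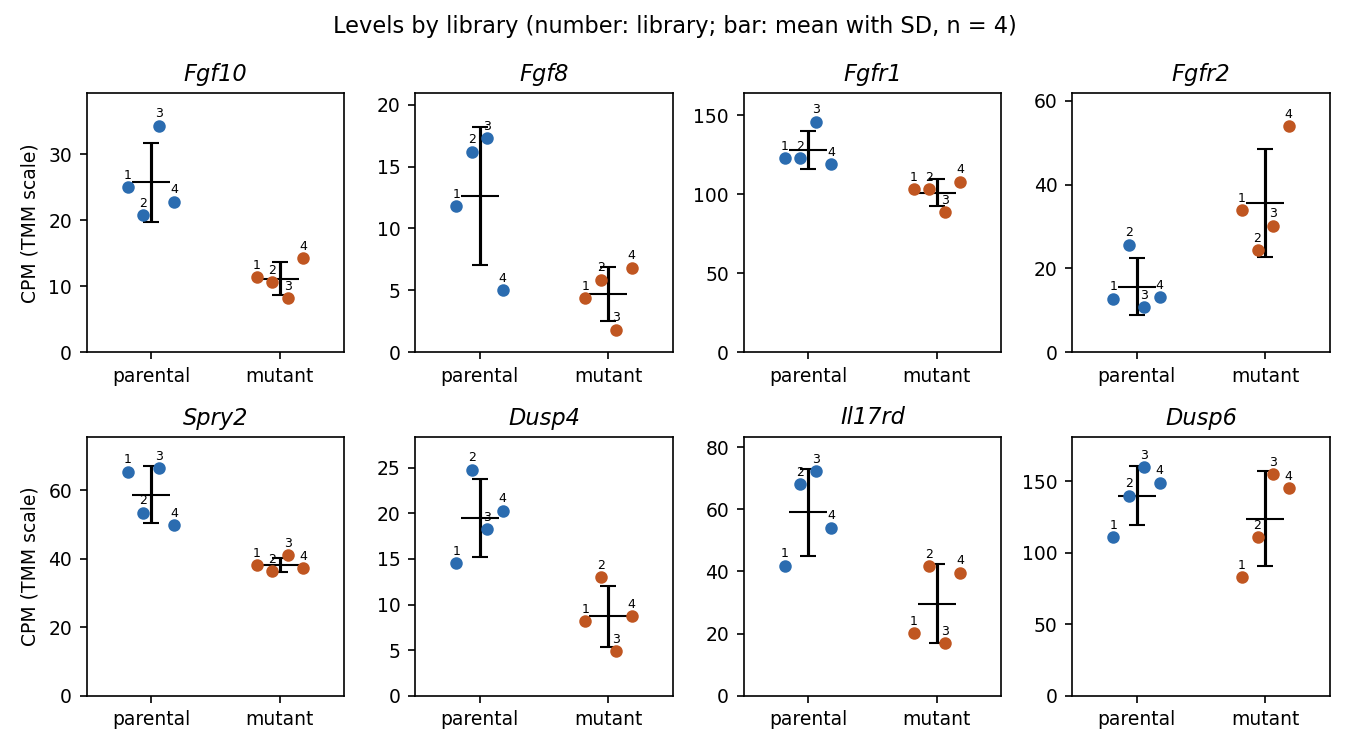
Level in CPM of 8 FGF members in each library, numbered 1 to 4 within each line, with the mean and SD of 4 libraries as bars. The lines are apart for Fgf10, Fgfr1, Spry2, Dusp4 and Il17rd, and Fgf8, Fgfr2 and Dusp6 overlap.

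Of the 5 receptor genes, 4 were tested and 0 called by edgeR, with 2 estimates below 0 and 2 above. Fgfr1, the main FGF receptor of early mesoderm, was the most abundant receptor with 123, 123, 146 and 119 CPM in the parental and 103, 103, 88.7 and 108 CPM in the mutant libraries. The lines did not overlap, but the difference of 1.27-fold did not pass (log2 fold change -0.34 ± 0.12, edgeR adjusted p = 0.233). Fgfr2, whose splice forms bind different ligands and include the receptor for Fgf10, had 12.8, 25.7, 10.8 and 13.2 CPM in the parental and 33.9, 24.3, 30.2 and 53.9 CPM in the mutant libraries. Parental library 2 lay just above mutant library 2, and the other 3 libraries of each line were apart. Its log2 fold change of 1.18 ± 0.30 missed the threshold in edgeR (adjusted p = 0.058) and passed it in DESeq2 (adjusted p = 0.0114). Leaving out parental library 2 or mutant library 2 gave the Fgfr2 difference an edgeR adjusted p of 0.0234 or 0.039, and leaving out parental library 3 gave 0.198, the highest of its alternatives.

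Fgfr3 had 22.6 ± 3.35 and 21.7 ± 3.74 CPM (SD, n = 4; log2 fold change -0.05 ± 0.23, edgeR adjusted p = 0.966). Fgfrl1, a receptor without a kinase domain, had 58.0 ± 8.30 and 59.5 ± 14.5 CPM (log2 fold change 0.03 ± 0.18, edgeR adjusted p = 0.975). Fgfr4 had at most 11 counts in any library. The Fgfr2 model in GENCODE M21 spans 2960900 bases of chromosome 7 (130162451 to 133123350, minus strand) because 1 of its transcripts starts far upstream, and the counts do not tell splice forms apart.

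As a share of the counts of the 4 receptor kinases, Fgfr1 took 75.8%, 70.8%, 81.8% and 78.0% in parental libraries 1 to 4 and 62.7%, 70.3%, 63.3% and 59.2% in mutant libraries 1 to 4. Fgfr2 took 7.92%, 14.7%, 6.04% and 8.65% in the parental and 20.6%, 16.5%, 21.5% and 29.4% in the mutant libraries. For both genes the lines did not overlap, by the narrow margins of parental and mutant library 2. The mean Fgfr2 share was 9.33 ± 3.75% and 22.0 ± 5.39% (SD, n = 4), and that of Fgfr3 was 13.5 ± 1.96% and 13.8 ± 2.10%. These shares were computed after the levels had been seen and carry no test.

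**Figure D3:**
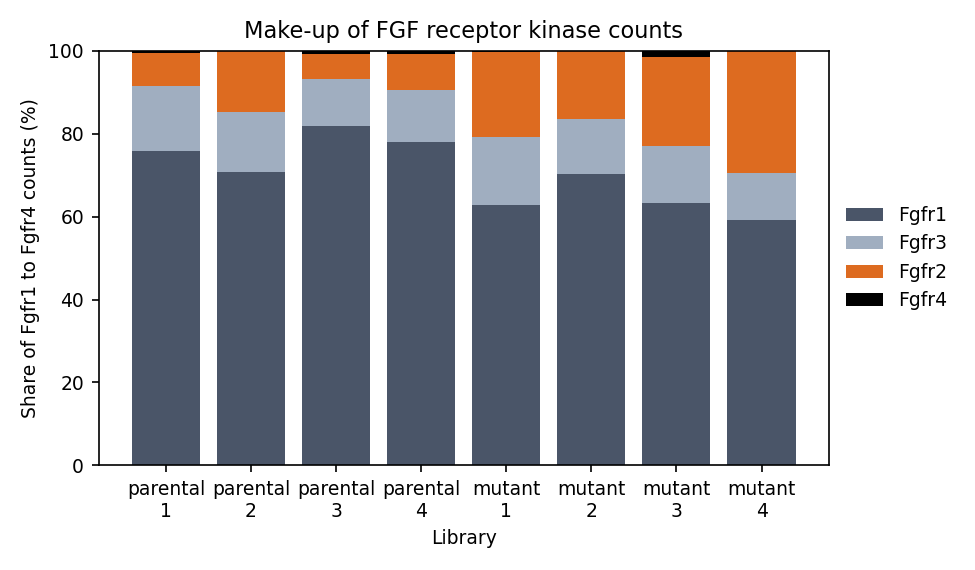
Share of Fgfr1, Fgfr2, Fgfr3 and Fgfr4 in the counts of the 4 receptor kinases, in percent, for each library. The Fgfr2 part is 6.04% to 14.7% in the parental and 16.5% to 29.4% in the mutant libraries.

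Genes that act on ligand availability and the adaptors were not called. Sulf1 and Sulf2 encode sulphatases that trim heparan sulphate outside the cell and so tune how FGFs bind their receptors. Sulf1 had 55.7, 42.3, 44.1 and 63.3 CPM in the parental and 25.6, 37.5, 32.5 and 48.4 CPM in the mutant libraries (log2 fold change -0.52 ± 0.21, edgeR adjusted p = 0.309), with mutant library 4 inside the parental range. Sulf2 had 66.4 ± 8.53 and 82.3 ± 10.7 CPM (SD, n = 4) and an estimate of the opposite sign, 0.30 ± 0.15 (edgeR adjusted p = 0.435). Fgfbp3, a carrier that releases FGFs from the matrix, had at most 26 counts per library and a log2 fold change of 0.52 ± 0.76, which lay between 0.16 (without parental library 2) and 1.00 (without parental library 1). The docking protein gene Frs2 had 60.7 ± 5.60 and 56.0 ± 7.77 CPM (log2 fold change -0.12 ± 0.16, edgeR adjusted p = 0.831), and its relative Frs3 had at most 3 counts in any library.

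Of the 9 feedback inhibitors, all passed the filter, 0 were called by edgeR, 8 had log2 fold changes below 0, and 4 had lines that did not overlap, all lower in the mutant. Over all genes tested, 49.8% had log2 fold changes below 0, and 4.04% had lines that did not overlap with the mutant lower. Spry2, a Sprouty inhibitor that is widely used as a readout of ERK signalling, had 65.5, 53.5, 66.5 and 49.9 CPM in the parental and 38.1, 36.4, 41.0 and 37.2 CPM in the mutant libraries. The mutant values were close together (SD 2.01 against 8.39 in the parental line), and the log2 fold change was -0.62 ± 0.16 (edgeR adjusted p = 0.0721, DESeq2 adjusted p = 0.0211). For Spry2 the limma-voom adjusted p was 0.0663, and the edgeR adjusted p was 0.0701 to 0.218 with single libraries left out. Dusp4, a nuclear phosphatase of ERK, had 14.5, 24.8, 18.3 and 20.3 CPM in the parental and 8.19, 13.0, 4.88 and 8.75 CPM in the mutant libraries. All mutant values were lower, with a log2 fold change of -1.16 ± 0.33 (edgeR adjusted p = 0.0935, DESeq2 adjusted p = 0.0336). For Dusp4 the limma-voom adjusted p was 0.0676. With single libraries left out its edgeR adjusted p was between 0.0434 (without mutant library 2) and 0.335 (without parental library 2).

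Il17rd, a membrane protein also known as Sef that inhibits FGF receptor signalling, had 41.8, 68.0, 72.2 and 54.1 CPM in the parental libraries. In the mutant libraries it had 20.2, 41.6, 17.0 and 39.6 CPM. The lines met almost without a gap, at 41.8 CPM in parental library 1 and 41.6 CPM in mutant library 2, and the log2 fold change was -1.01 ± 0.26 (edgeR adjusted p = 0.0708, DESeq2 adjusted p = 0.0167). Leaving out mutant library 2 or 4 gave Il17rd an edgeR adjusted p of 0.0302 or 0.0272, and the highest over its alternatives was 0.243. Spred3, a Spred protein with a restricted pattern of expression, had 5.61, 6.60, 9.36 and 10.3 CPM in the parental and 4.01, 5.42, 2.71 and 3.01 CPM in the mutant libraries. Parental library 1 was barely above mutant library 2, and the log2 fold change of Spred3 was -1.07 ± 0.48 (edgeR adjusted p = 0.387).

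Dusp6, the cytoplasmic ERK phosphatase that is a standard FGF target, was the most abundant member and overlapped between the lines. It had 111, 140, 160 and 149 CPM in the parental and 83.0, 111, 155 and 145 CPM in the mutant libraries, a log2 fold change of -0.18 ± 0.17 (edgeR adjusted p = 0.75). Spred1, a RAS-ERK inhibitor, had 100 ± 19.6 and 86.2 ± 19.1 CPM (SD, n = 4; log2 fold change -0.22 ± 0.17). Spred2 had a log2 fold change of -0.15 ± 0.25 and Spry4, a Sprouty gene induced by ERK, -0.79 ± 0.54. Spry1 was the inhibitor with an estimate above 0, at 0.34 ± 0.46. The edgeR adjusted p-values of these last 4 genes were between 0.626 and 0.877. With single libraries left out, the estimates near 0 ranged from -0.32 to -0.03 for Dusp6, from -0.36 to -0.10 for Spred1, from -0.33 to -0.03 for Spred2 and from 0.17 to 0.59 for Spry1. Summed over the 9 inhibitors, levels were 346 to 484 CPM in the parental and 264 to 372 CPM in the mutant libraries and overlapped.

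Upstream sequence was searched for motifs of factors that act in or on this pathway, in every member with a RefSeq window. RefSeq (GRCm38.p6) gave 36 start sites for 26 of the 35 members. The Capicua octamer, in any of the 4 spellings and on either strand, was in the 250 bases before the start of 4 members, Spry2, Spred3, Dusp6 and Fgfbp3. That is 4 of 36 member windows (11.1%), against 3.19% of all 32851 windows of the same length. The T-box half-site was in the window of Fgf5 (3.33% of all windows), the ETS site in those of Fgfrl1 and Frs2 (6.91%), and the AP-1 site in 1 of the Fgf12 windows (4.46%). No member window held more than 1 match, so no matches overlapped. A match is a run of letters and not a measured binding site.

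The 3 inhibitor windows with the octamer are shown, 5′ to 3′ on the strand of the gene and ending at the base before the start, with the octamer or its reverse complement in capitals. The Spred3 window lies in an intron of the longer M21 model of that gene, and none of these windows overlaps an exon in M21. They are those of Spry2 (chr14:105896820-105897069, minus strand), whose match begins 54 bases before the start; of Spred3 (chr7:29168648-29168897, minus strand), 10 bases before; and of Dusp6 (chr10:99262981-99263230, plus strand), 24 bases before. Spry2 and Spred3 had lines that did not overlap and Dusp6 had lines that did, so the octamer was present in members of both kinds.
Spry2: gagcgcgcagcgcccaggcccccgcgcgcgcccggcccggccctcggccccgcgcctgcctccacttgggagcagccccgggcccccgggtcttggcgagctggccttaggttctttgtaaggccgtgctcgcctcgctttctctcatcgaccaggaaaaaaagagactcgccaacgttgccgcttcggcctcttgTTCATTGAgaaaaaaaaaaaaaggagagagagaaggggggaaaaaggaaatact
Spred3: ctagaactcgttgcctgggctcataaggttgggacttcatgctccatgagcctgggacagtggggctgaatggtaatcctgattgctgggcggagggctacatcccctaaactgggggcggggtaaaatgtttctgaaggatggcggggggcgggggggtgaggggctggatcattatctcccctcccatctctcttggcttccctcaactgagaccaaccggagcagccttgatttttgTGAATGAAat
Dusp6: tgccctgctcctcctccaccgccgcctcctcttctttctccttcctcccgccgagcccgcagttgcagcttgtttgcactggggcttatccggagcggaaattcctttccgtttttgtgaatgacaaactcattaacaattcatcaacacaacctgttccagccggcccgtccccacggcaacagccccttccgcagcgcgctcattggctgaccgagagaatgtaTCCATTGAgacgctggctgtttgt

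The ETS factors Etv1, Etv4 and Etv5 are transcription factors whose genes FGF signalling induces, and all 3 had log2 fold changes below 0 without a call. Etv4 had 5.79, 9.10, 15.6 and 16.6 CPM in the parental and 2.17, 9.54, 3.07 and 6.02 CPM in the mutant libraries (log2 fold change -1.19 ± 0.49, edgeR adjusted p = 0.331). Mutant library 2 lay above 2 parental libraries for Etv4. Etv1 had 20.6, 22.8, 17.9 and 17.8 CPM in the parental and 15.0, 19.9, 11.0 and 2.73 CPM in the mutant libraries (log2 fold change -0.69 ± 0.39, edgeR adjusted p = 0.527). Mutant library 4 was the lowest by far, and the log2 fold change of Etv1 was -0.38 without it. Etv5 had 43.4, 43.7, 64.1 and 48.4 CPM in the parental and 22.6, 43.1, 45.3 and 44.6 CPM in the mutant libraries (log2 fold change -0.37 ± 0.22, edgeR adjusted p = 0.557), and mutant library 1 alone lay well below the rest. Without that library the log2 fold change of Etv5 was -0.18, and without parental library 3 it was -0.23. The 3 genes summed to 69.8 to 97.6 CPM in the parental and 39.8 to 72.6 CPM in the mutant libraries.

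**Figure D4:**
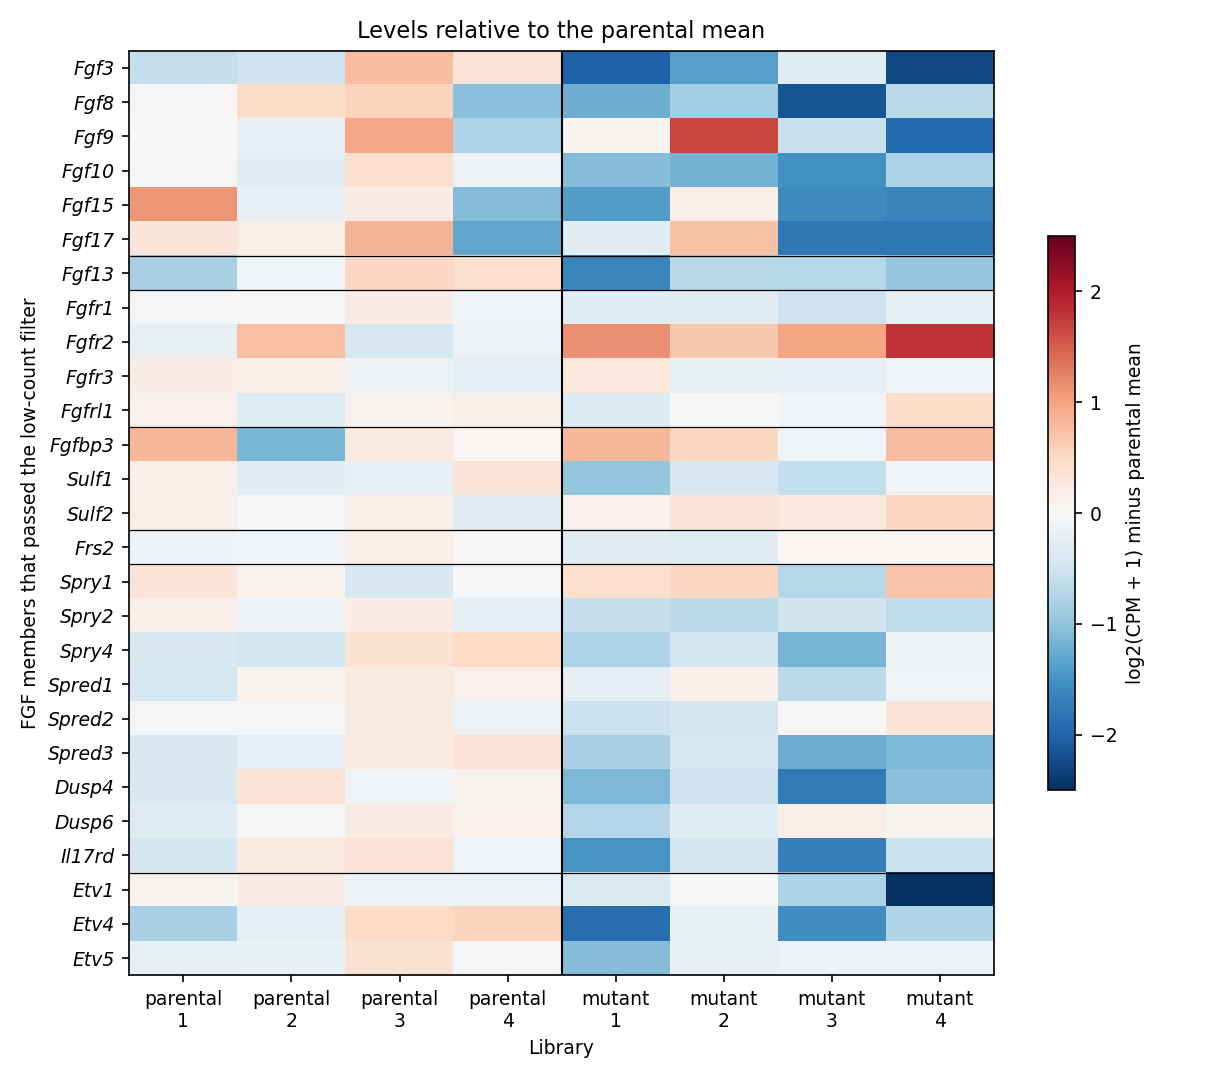
Level of the 27 tested FGF members in each library as log2(CPM + 1) minus the parental mean of the gene, red for higher and blue for lower, with lines between roles. The rows of Fgf10, Spry2, Dusp4 and Il17rd are blue in all 4 mutant libraries and Fgfr2 is red in all 4, while Fgf9, Fgf15 and Fgf17 differ between mutant library 2 and the others.

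The mutant libraries differed among themselves. Of the 27 members, 10 were highest within the mutant line in library 2, and 10 others in library 4, whereas 12 were lowest in library 3 (Fgf17 tied with library 4) and 8 in library 1. Mutant library 2 held the highest mutant level of Fgf9, Fgf15, Fgf17, Dusp4, Il17rd and Etv4, at 11.3, 5.42, 4.77, 13.0, 41.6 and 9.54 CPM. Within the parental line, library 3 was highest for 14 of the 27.

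Marker genes of other cell types also differed between libraries, and their part in the FGF values was not tested. The 12 genes for nascent and paraxial mesoderm summed to 80.4 CPM in mutant library 2, to 20.6 to 23.6 CPM in the other 3 mutant libraries and to 44.7 to 75.2 CPM in the parental ones. Of its 12 genes, 8 were tested and 0 called by edgeR on all libraries, T, Meox1 and Pax3 were the highest, and Msgn1 had no count in any library. Cardiomyocyte genes summed to 651 to 3800 CPM in the parental and 134 to 1030 CPM in the mutant libraries, and mutant library 4 was the lowest. All 12 tested cardiomyocyte genes had log2 fold changes below 0 (median -1.21), 7 of them at an unadjusted p under 0.05, and 0 were called by edgeR. Over all genes tested, 49.8% were below 0, and 5.92% were lower at an unadjusted p under 0.05 in edgeR. Endoderm and epithelial genes summed to 282 to 486 and 257 to 304 CPM, with 2 of 12 called lower, Foxa2 (-1.93) and Krt18 (-0.76), as log2 fold changes. Over all genes tested, 0.67% were called lower by edgeR. The Foxa2 call ended without any 1 of the 4 parental libraries or mutant library 2 or 3 (adjusted p up to 0.111) and with limma-voom, and the Krt18 call without parental library 1 or 2 or mutant library 3 (up to 0.0691). Neural and ectodermal genes summed to 52.2 to 75.7 and 38.3 to 60.3 CPM with 0 of 8 called, and pluripotency genes to 31.9 to 53.2 and 32.9 to 59.1 CPM with 0 of 7 called.

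Endothelial and haematopoietic genes summed to 536 to 837 CPM in the parental and 1130 to 1850 CPM in the mutant libraries without overlap. Of 14 tested, 4 were called higher, the globins Hba-x, Hbb-bh1 and Hbb-y and the factor Fli1. Log2 fold changes were above 0 for 12 of the 14 and below for 2. The endothelial genes Kdr (0.34, edgeR adjusted p = 0.534) and Pecam1 (-0.27, adjusted p = 0.718), among the most abundant of the list, were not called. Smooth muscle and fibroblast genes summed to 692 to 1780 and 1330 to 1790 CPM, with 3 of 10 called higher, Col3a1, Postn and Twist1. Of the 10, 6 had log2 fold changes above 0 and 4 below (median 0.21). The 3 with the highest parental levels were not called. They were Acta2 (-0.45, edgeR adjusted p = 0.682), Col1a1 (0.11, adjusted p = 0.865) and Pdgfra (-0.17, adjusted p = 0.75). Of all 13280 genes tested, edgeR called 99 higher and 89 lower. The Fli1 and Postn calls ended without parental library 3 (edgeR adjusted p = 0.0525 and 0.0515). The cardiopharyngeal and second heart field list summed to 1010 to 1110 and 909 to 1080 CPM. Of its 13 tested genes, 11 had log2 fold changes below 0 (median -0.63) and 2, Hand2 and Lhx2, above. The 11 include Tbx1 itself, the targeted gene, and 49.8% of all genes tested were below 0. Apart from the targeted gene Tbx1, Osr1 and Foxc1 were called lower and Lhx2 was called higher. The Osr1 call ended with library-size scaling and without parental library 2, 3 or 4 or mutant library 1, 3 or 4 (adjusted p up to 0.126), the Foxc1 call without parental library 2 or mutant library 3 (up to 0.0727), and the Lhx2 call with limma-voom (0.104). In these bulk libraries fewer cells of a type and less RNA per cell cannot be told apart, for Fgf10 as for the other members.

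Without mutant library 4, the library of lowest depth, edgeR called 2 members, Fgf10 (adjusted p = 0.0124) and Il17rd, both lower, with 1.29% of all genes called. Without mutant library 2 it called 3, Fgfr2 as higher and Dusp4 and Il17rd as lower, with 1.71% of all genes called. Fgf10 then had an adjusted p of 0.0507 at a log2 fold change of -1.21. Of the mesoderm markers, T (log2 fold change -1.82, edgeR adjusted p = 0.0417) and Pax3 (-3.30, edgeR adjusted p = 0.019) were called lower without mutant library 2. That library had the highest sum of these markers, so its removal is not an independent check. With any other single library left out neither was called (edgeR adjusted p = 0.227 to 0.602 for T and 0.51 to 0.747 for Pax3). Leaving out parental library 1 or 3, or mutant library 1 or 3, gave 0 called members. Leaving out parental library 2 gave 2, and leaving out parental library 4 gave 1.

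The other genes of the pathway were counted from a list of 81, of which 62 were tested and 1 was called. Over all genes tested 1.42% were called, and 1 call of 62 is too few to be read against this share. The median log2 fold change over the 62 was 0.02, with 30 below 0. Of the 23 genes of the cascade from RAS to ERK, all were tested and 0 called, with log2 fold changes from -0.42 to 0.74. The one with the smallest p was Mapk3, which encodes ERK1, at 207 ± 26.5 and 162 ± 32.2 CPM (SD, n = 4; log2 fold change -0.35 ± 0.14, edgeR adjusted p = 0.313). At an unadjusted p under 0.05 in edgeR, 1 of the 23 was lower and 2 were higher. Over all genes these shares were 5.92% and 6.01%.

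Among 27 immediate early genes and other dual-specificity phosphatases, 23 were tested and 1 was called. Jun, which encodes an AP-1 subunit, rose from 90.9 ± 19.0 to 149 ± 26.6 CPM (SD, n = 4; log2 fold change 0.71 ± 0.16, edgeR adjusted p = 0.0296). Parental library 1 and mutant library 2 touched, at 114 CPM each. The Jun call ended without parental library 2, 3 or 4 or mutant library 1, 3 or 4, with adjusted p-values from 0.0512 to 0.162. At an unadjusted p under 0.05 in edgeR, 7 of the 23 were higher and 4 lower, where 6.01% of all genes were higher and 5.92% lower. Lines did not overlap for 3 lower genes and 1 higher one, against 4.04% and 3.49% of all genes. The list held estimates on both sides of 0, 10 below and 13 above, in contrast to the feedback inhibitors among the members. The difference between these lists was not tested.

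Of 17 genes for heparan sulphate synthesis, 15 were tested and 0 called by edgeR. At an unadjusted p under 0.05 in edgeR, 4 were higher and 1 lower, where 6.01% of all genes were higher and 5.92% lower. The 4 were Ext2, Ndst1, Hs6st2 and Glce and the lower one was Hs3st3a1, named after their values were seen. Hs6st2, which adds 6-O-sulphate to heparan sulphate, had the smallest p, with 35.4 ± 9.76 and 53.7 ± 8.71 CPM (log2 fold change 0.61 ± 0.21, edgeR adjusted p = 0.197). The summed level of the 17 genes was 491 to 504 CPM in the parental and 522 to 621 CPM in the mutant libraries, without overlap, a description made after the values were seen. Of 14 other ligands and cofactors, Fgf6 was tested and not called (log2 fold change -1.63 ± 1.08, edgeR adjusted p = 0.61), 12 were below the filter and Spry3 was not matched.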

How the data were processed

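RNA of 8 day 6 cultures was measured, 4 per line, with groups and replicate numbers as titled. QuantSeq 3′ libraries were used, per the labels' protocols. The authors deposited 1 table of unnormalized counts per gene and library. STAR, featureCounts and build mm10 (GRCm38) are named in the submitters' processing notes, without versions, and the table's name states forward-strand counting. The annotation, filters and any duplicate removal are not given in the sources used here. Identifiers were matched to symbols by their number without the version (55141 of 55487), and coordinates are those of GENCODE M21.

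Genes were kept by edgeR's filterByExpr at its defaults (13280 genes), libraries were scaled by TMM, and CPM are on that scale. The lines were compared by edgeR 4.0.16 (glmQLFit and glmQLFTest, R 4.3.3), with the line as the only term and all 8 libraries, Benjamini-Hochberg adjustment over all genes tested and a threshold of 0.05. Each SE is the log2 fold change divided by the root of F. The code was tested on simulated data. Depth was 3803561 to 6293907 counts per library, which limits genes of few counts, and 3 counts served as a floor. Within lines, a chi-square test of counts gave 7.25 to 26.4 per degree of freedom, so no library was a copy of another.

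The members and gene lists were chosen with earlier results of these data known. The named genes were all members, Tbx1, the called genes or the smallest p of each pathway list, and the called and 3 highest genes of each marker list. Of the listed genes, Spry3 was not matched to the table. Alternatives were RLE, upper-quartile and library-size scaling, no filter, a filter at 10 counts on average, DESeq2 1.42.0, limma-voom 3.58.1, a replicate block and leaving out each library.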

Additional observations from a re-analysis of the deposited data

Results flagged for a closer look

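The levels of each member were examined for a library that stood far from the other 3 of its line, in the 52 sets of 4 libraries with at least 40 counts in all. Of these, 5 were marked, where chance marks about 5% of such sets. Fgf15 had 5.42 CPM in mutant library 2 and 0.82 to 1.17 CPM in the other mutant libraries. Fgfr1 had 146 CPM in parental library 3 and 119 to 123 CPM in the other parental libraries. Fgfr2 had 25.7 CPM in parental library 2, against 10.8 to 13.2 CPM in the others. Fgfrl1 had 45.7 CPM in the same library, against 60.9 to 63.7 CPM. Etv5 had 22.6 CPM in mutant library 1, against 43.1 to 45.3 CPM in the other mutant libraries.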

How the results depend on the processing

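For all genes, 188 were called (99 higher and 89 lower), 157 with library-size scaling (100 and 57), 439 with no filter beyond 1 count and 405 with DESeq2; leaving out single libraries gave 103 to 235. FGF members called were 1, but 5 with no filter and with DESeq2, 3 with limma-voom and 0 to 3 with single libraries left out. Pathway genes outside the members called were 1, but 3 with no filter, with DESeq2 and with limma-voom, and 0 to 2 with single libraries left out. The deviations of same-numbered libraries correlated at 0.102, 0.015, -0.033 and 0.028, which does not settle whether the replicate numbers pair the libraries. Number 1 correlated best with its own number (0.102 against at most 0.018), and numbers 2, 3 and 4 did not. A fit that blocked on the number called 234 genes, 172 of them among the 188, and 2 members, Fgf10 and Il17rd, both lower, with 1 pathway gene. The block also called the cardiomyocyte genes Ttn, Myl7 and Tnnt2 as lower (edgeR adjusted p = 0.0109, 0.0088 and 0.00298). The edgeR fit with no filter gave them 4.45e-35, 5.15e-34 and 1.49e-17, against 0.173, 0.199 and 0.147 in the main fit. Since the lines overlapped for Ttn, calls of the fit with no filter, also those of members, need caution. Of the 27 members tested, 24 kept their sign in every setting. Fgf9 turned to -0.60 with limma-voom, -0.46 with the block, and lay between -1.03 and 0.87 without single libraries. Fgfrl1 turned to -0.02 with limma-voom and lay between -0.14 and 0.14 without single libraries, and Fgfr3 lay between -0.19 and 0.01. Of the marker genes, Sox2 turned to -0.04 with limma-voom, and without single libraries Sox2, Nes, Acta2 and Col1a1 ranged over both signs (-0.10 to 0.22, -0.35 to 0.04, -0.73 to 0.16 and -0.02 to 0.27). The causes were not tested. Scaling moved the median log2 fold change of all genes by at most 0.025. Depth leaves 8 members untested, each with at most 23 counts in any library.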
